A study of Mus musculus with 8 samples.

Results

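The genes described here are 9 regulators of meiotic chromatin and heterochromatin, chosen by name from a table of 54532 genes: *Brdt*, *Setdb1*, *Suv39h2*, *Ehmt1*, *Ehmt2*, *Morc1*, *Hells*, *Ctcfl* and *Trim28*. RNA was measured by sequencing in whole testes of 8 C57BL/6J mice, with 1 library per mouse. The study asked whether the X and Y chromosomes stay silenced when the whole Y axis stays joined to the X axis by non-homologous synapsis. In the paper, many but not all pachytene spermatocytes kept this configuration after loss of *Spdya*, which encodes a cyclin-like activator of CDK2. The 4 control mice (Sync-Spdya fl/fl) had the genotype Spdyafl/fl, and the 4 cKO mice (Sync-Spdya cKO) carried the same floxed alleles together with Ddx4-CreERT2. Both groups were synchronized, which means that an inhibitor of retinoic acid (RA) synthesis was given to newborn mice and RA was supplied at postnatal day 9, both received tamoxifen on days 7.5 and 8.5 after RA, and testes were taken on day 11.5. In the cKO mice the Cre recombinase is expressed from the *Ddx4* locus in germ cells and removes exon 2 of *Spdya* once tamoxifen activates it, whereas the controls carry no Cre. Cre and *Spdya* loss therefore cannot be told apart between these groups, and somatic cells of the cKO testis keep *Spdya*.

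Spermatocytes pack and read their genome through proteins that write, bind or remove histone marks. BRDT is a bromodomain protein of germ cells that binds acetylated histones and turns on genes of pachytene and later cells. SETDB1, SUV39H2, EHMT1 and EHMT2 methylate lysine 9 of histone H3 (H3K9), a mark of silent chromatin, and TRIM28 is the corepressor that brings SETDB1 to sites bound by KRAB zinc finger proteins. MORC1 is an ATPase needed to silence transposons in male germ cells, HELLS is an ATP-dependent remodeller that helps DNA methylation to be laid down on repeats, and CTCFL is the germ cell paralog of the insulator protein CTCF.

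Promoter sequences are given for 4 of the genes, *Brdt* and *Setdb1* because they had the 2 smallest p-values of the 9 between the groups and *Suv39h2* and *Hells* because they hold the same E2F-type motif. Each run is the 250 bases before the RefSeq start site (GRCm38.p6), read 5′ to 3′ on the gene's strand, and capitals mark motif matches found on either strand. The windows are chr5:107330944-107331193 (+) for *Brdt*, chr3:95357203-95357452 (-) for *Setdb1*, chr2:3474987-3475236 (-) for *Suv39h2* and chr19:38930740-38930989 (+) for *Hells*.
Brdt: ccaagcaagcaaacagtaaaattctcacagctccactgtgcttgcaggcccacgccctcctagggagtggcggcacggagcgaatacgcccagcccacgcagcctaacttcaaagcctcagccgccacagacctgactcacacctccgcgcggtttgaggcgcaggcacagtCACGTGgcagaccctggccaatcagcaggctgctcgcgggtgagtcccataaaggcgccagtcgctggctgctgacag
Setdb1: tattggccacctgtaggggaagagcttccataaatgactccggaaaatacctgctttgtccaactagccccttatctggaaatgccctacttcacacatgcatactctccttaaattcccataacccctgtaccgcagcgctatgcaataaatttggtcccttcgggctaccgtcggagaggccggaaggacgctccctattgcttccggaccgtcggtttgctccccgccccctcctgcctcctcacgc
Suv39h2: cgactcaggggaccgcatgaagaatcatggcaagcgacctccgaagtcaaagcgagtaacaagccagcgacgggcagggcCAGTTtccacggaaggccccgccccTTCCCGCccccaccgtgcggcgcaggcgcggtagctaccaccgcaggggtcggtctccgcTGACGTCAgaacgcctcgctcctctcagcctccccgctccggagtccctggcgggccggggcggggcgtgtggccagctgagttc
Hells: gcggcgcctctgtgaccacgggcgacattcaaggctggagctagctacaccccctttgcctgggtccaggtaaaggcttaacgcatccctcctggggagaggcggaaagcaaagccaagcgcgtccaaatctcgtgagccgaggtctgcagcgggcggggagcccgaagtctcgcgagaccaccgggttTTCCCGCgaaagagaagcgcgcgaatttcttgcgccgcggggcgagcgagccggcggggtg

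Of the 9 genes, 7 were matched to a RefSeq promoter, and *Morc1* and *Ctcfl* were not. The motifs searched were the E-box CACGTG, the E2F-type TTCCCGC, the cyclic AMP response element TGACGTCA and the MYB-type core AACTG, none of which overlapped another in the runs above. The E-box was found once in *Brdt*, 78 bases before the start, and at 2 places in *Ehmt2*, and it was present in 6.02% of 32851 RefSeq promoters. The E2F-type motif was found in 3 of the 7 promoters (*Suv39h2*, *Hells* and *Trim28*) and in 3.82% of all promoters. *Suv39h2* also held the cyclic AMP response element (1.55% of all promoters) and, like *Ehmt2*, the MYB-type core (39.1% of all promoters). *Setdb1* and *Ehmt1* held none of these letters. The 7 promoters had 13 to 28 CpG dinucleotides, against a median of 6 over all promoters. The motif shares above were taken over all promoters and were not matched for CpG content. The RefSeq start of *Trim28* lay 25038 bases inside the start of the gene as the deposited table gives it.

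The deposited values were FPKM, fragments per kilobase of gene length and per unit of a scaled library size. The fragments counted on genes ranged from 13978342 to 17867570 in the control and from 15494873 to 19583091 in the cKO libraries. Control replicate 1 stood apart from the others, with 0.464% of its fragments on mitochondrial genes against 2.20% to 3.74% in the other 7 libraries. *Spdya* over the whole gene had 20.8, 21.0, 23.8 and 19.7 FPKM in the control and 30.5, 22.2, 26.1 and 17.7 FPKM in the cKO libraries, which overlapped, so that its level cannot check the labels. *Ddx4*, the germ cell gene that drives Cre, had 200.5 to 259 FPKM in the control and 169 to 252 FPKM in the cKO libraries. Markers of round spermatids summed to 0.358 to 1.33 FPKM in all 8 libraries, near 0, while those of leptotene and zygotene spermatocytes summed to 281 to 462 FPKM, of which *Tex101* alone made up 245 to 405 FPKM. *Hist1h1t* of the pachytene list had a mean of 0.473 FPKM, although *Piwil1*, *Ybx3* and *Nxt1* of the same list were abundant. The paper detected the protein of *Hist1h1t* in most pachytene cells of both groups at mid-pachynema. In whole testis, fewer cells of a type and less RNA per cell cannot be told apart. The paper also sequenced single cells from pooled testes of both groups, taken slightly later after RA. There spermatocytes made up a smaller share, and spermatogonia a larger share, in the cKO than in the control testes. The paper read this as a loss of spermatocytes. Whether the same shift was present in the 8 libraries was not tested.

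All 9 genes were expressed in every library, and their levels spanned a wide range. In FPKM, which is a level per gene length, *Trim28* was highest with a median of 156 over the 8 libraries, above 99.5% of protein-coding genes. *Ehmt2* (69.5 FPKM), *Brdt* (40.8), *Setdb1* (30.2) and *Hells* (26.4) followed, then *Ehmt1* (11.3), *Suv39h2* (7.72), *Morc1* (4.59) and *Ctcfl* (3.96). The last of these still lay above 57.9% of protein-coding genes. Each gene was above the next in this order in 8 of 8 libraries, apart from *Ehmt1* above *Suv39h2* (7 of 8) and *Morc1* above *Ctcfl* (6 of 8). Over the 8 libraries the ranges of neighbours overlapped for *Brdt* and *Setdb1*, *Setdb1* and *Hells*, *Ehmt1* and *Suv39h2*, and *Morc1* and *Ctcfl*. The values rested on 181 fragments at the lowest, for *Ctcfl*, and on 15407 at the highest, for *Trim28*.

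**Figure D1:**
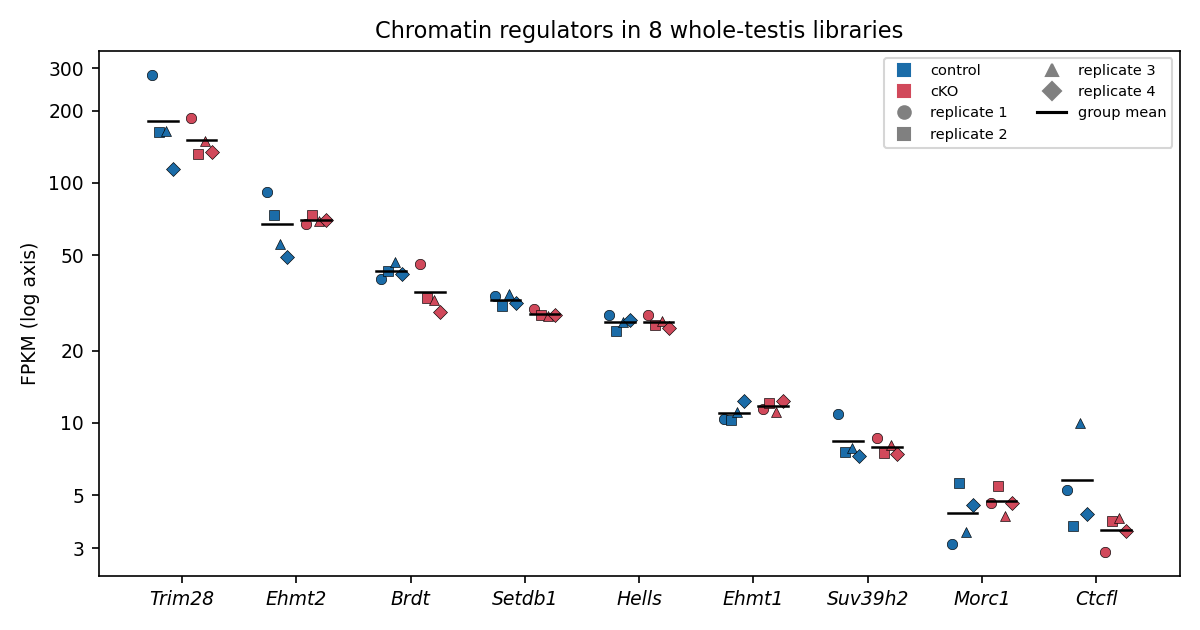
Level of the 9 chromatin regulators in each whole-testis library, in FPKM on a log axis, ordered by their median over 8 libraries. Blue points are the 4 control and red points the 4 cKO libraries, the marker shape gives the replicate number and the bar is the group mean. All 4 cKO libraries lie below all 4 control libraries for *Setdb1* (27.8 to 29.9 against 30.6 to 34.5 FPKM), and the groups overlap for the other 8 genes.

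None of the 9 genes passed the test between the groups. The test covered 12141 protein-coding genes whose mean FPKM exceeded 1 in each group. Of these, 2 (0.0165%) were called at a limma adjusted p below 0.05 with an absolute log2 fold change above 1, and 0 of the 9 were among them or had an adjusted p below 0.05. The count for the 9 was also 0 with voom on the fragments recovered from FPKM. The paper's own test, DESeq2 at the same thresholds, called more protein-coding genes than the 2 found here, none of them on the sex chromosomes. At an unadjusted p below 0.05 stood 0 of the 9 genes, against 10.9% of the genes tested, of which 5% were lower and 5.89% were higher in the cKO libraries. The log2 fold change, cKO against control on the log2(FPKM + 0.1) scale, was below 0 for 6 of the 9 and above 0 for 3, with a median of -0.07 against 0.01 over all genes tested, of which 48.0% were below 0. This split depended on the scaling: with the libraries rescaled to TPM (length-corrected values with the same total in each library) 4 of the 9 were below 0, and without control replicate 1 only 3 were.

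*Brdt* (ENSMUSG00000029279, chr5:107331159-107387058, + strand, GRCm38) had 39.8, 43.0, 47.0 and 41.8 FPKM in the control libraries. In the cKO libraries it had 45.8, 33.0, 32.4 and 29.1 FPKM. Replicates 2 to 4 of the cKO group lay below every control library, and the groups overlapped through cKO replicate 1 alone. The means were 42.9 ± 3.04 and 35.1 ± 7.35 FPKM (SD, n = 4 per group), that is a log2 fold change of -0.31 (SE 0.14, 95% interval -0.63 to 0.01, limma adjusted p = 0.472). Without cKO replicate 1 the log2 fold change was -0.44 (limma adjusted p = 0.186), and without cKO replicate 4 it was -0.23. The adjusted p of *Brdt* ranged from 0.0647 to 0.988 over 19 other ways of processing, and the lowest, with libraries weighted by their residual spread, was the lowest of any of the 9 genes.

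The level of *Brdt* is given here beside markers of pachytene spermatocytes, the cells that it is known from. The mean log2(FPKM + 0.1) over the 8 listed pachytene markers was 2.72, 2.76, 2.92 and 2.56 in the control libraries and 2.79, 2.50, 2.31 and 2.34 in the cKO libraries. Both *Brdt* and this list were highest in replicate 3 among the controls and in replicate 1 among the cKO libraries. Their lowest libraries differed: control replicate 1 and cKO replicate 4 for *Brdt*, control replicate 4 and cKO replicate 3 for the list. *Ccna1*, *Hist1h1t*, *Pou5f2* and *Spag6* of the list were near the floor, with means of 0.361 to 1.31 FPKM over the 8 libraries. In summed FPKM the list ranged from 386.9 to 568.2 in the control and from 312.2 to 453.6 in the cKO libraries. Of its 4 markers tested, 3 were lower in the cKO libraries at an unadjusted p below 0.05, against 5% of all genes tested. These were *Adam3* (log2 fold change -0.98), *Ybx3* (-0.51) and *Piwil1* (-0.40), and none of the 4 had an adjusted p below 0.05. The part of the pachytene markers in the values of *Brdt* was not tested.

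Its relatives *Brd2* and *Brd3*, BET proteins of many tissues, had log2 fold changes of -0.07 (limma adjusted p = 0.886) and -0.10 (limma adjusted p = 0.719), with overlapping groups in both.

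*Setdb1* (ENSMUSG00000015697, chr3:95323525-95357202, - strand) had 33.9, 30.6, 34.5 and 31.5 FPKM in the control libraries. In the cKO libraries it had 29.9, 28.1, 27.8 and 28.2 FPKM. It was the 1 gene of the 9 whose groups did not overlap, each cKO library lying below each control library, as did 2.59% of all genes tested in this direction. The means were 32.6 ± 1.86 and 28.5 ± 0.935 FPKM (SD, n = 4 per group), that is a log2 fold change of -0.19 (SE 0.09, limma adjusted p = 0.472). The 95% interval, expressed as a fold of the control level, ran from 0.765 to 1.00. It stayed between -0.22 and -0.16 as each library was left out, and it was -0.11 after rescaling to TPM (limma adjusted p = 0.718).

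*Trim28* (ENSMUSG00000005566, chr7:12999114-13031035, + strand), which recruits SETDB1, varied far more between libraries of the same group. Its control values were 283, 163, 165 and 114 FPKM, and its cKO values were 187, 132, 149 and 134 FPKM. Control replicate 1 was the highest of the 8 libraries, control replicate 4 was the lowest, and the cKO values all lay between them. This gave a log2 fold change of -0.20 (SE 0.25, 95% interval -0.76 to 0.36, limma adjusted p = 0.823). Leaving out control replicate 1 made it 0.04 and leaving out control replicate 4 made it -0.40, so its direction rested on single libraries. *Trim28* as annotated overlaps *Zbtb45* on the opposite strand over 6137 bases, where *Zbtb45* had a median of 3.35 FPKM, and the use of strand in counting is not given in the sources used here.

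The log2 ratio of *Setdb1* to *Trim28* had nearly equal means in the groups and unequal spreads. It was -2.39 ± 0.50 in the control and -2.38 ± 0.19 in the cKO libraries (SD, n = 4 per group), a difference of 0.01 (two-sided exact permutation test, p = 0.914, adjusted p = 1 over 7 pairs). In the control libraries it ran from -3.06 in replicate 1 to -1.85 in replicate 4. The TRIM28 relatives *Trim24* and *Trim33* had log2 fold changes of -0.20 and -0.03, neither with an unadjusted p below 0.05, and *Trim66* was too low to be tested. Leaving out control replicate 1 (27.7 FPKM for *Trim24*, against 18.3 to 19.1 FPKM in the other controls) made the log2 fold change of *Trim24* -0.06.

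*Suv39h2* (ENSMUSG00000026646, chr2:3455815-3475031, - strand), the form of this methyltransferase enriched in testis, had 10.9, 7.57, 7.88 and 7.25 FPKM in the control libraries. Its cKO values were 8.65, 7.48, 8.07 and 7.41 FPKM. Apart from control replicate 1, all libraries lay between 7.25 and 8.65 FPKM and the groups overlapped. Its log2 fold change was -0.07 (SE 0.14, 95% interval -0.38 to 0.24, limma adjusted p = 0.890), and it was 0.06 without control replicate 1 and 0.01 after rescaling to TPM. *Suv39h2* shares 8316 bases with *Dclre1c* on the opposite strand, a DNA repair gene with a median of 5.36 FPKM, and reads of the pair cannot be told apart if strand was not used.

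The X-linked paralog *Suv39h1* was expressed at about the level of *Suv39h2*. Its means were 8.27 ± 1.22 FPKM in the control and 7.29 ± 0.851 FPKM in the cKO libraries (SD, n = 4 per group), with a limma adjusted p of 0.700. The log2 ratio of *Suv39h2* to *Suv39h1* was 0.01 ± 0.43 and 0.12 ± 0.27 (two-sided exact permutation test, p = 0.6, adjusted p = 0.84 over 7 pairs). In replicate 1 of each group it was highest, at 0.64 in the control and 0.52 in the cKO library. The other methyltransferase listed, *Setdb2*, had a log2 fold change of 0.01.

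*Ehmt1* (ENSMUSG00000036893, chr2:24789928-24919614, - strand) and *Ehmt2* (ENSMUSG00000013787, chr17:34898469-34914052, + strand) encode GLP and G9a, which act as a dimer that places the first and second methyl groups on H3K9. *Ehmt1* had 10.4, 10.3, 11.1 and 12.3 FPKM in the control and 11.4, 12.1, 11.1 and 12.4 FPKM in the cKO libraries. *Ehmt2* had 91.7, 73.3, 55.5 and 49.3 FPKM in the control and 67.2, 73.7, 69.1 and 69.8 FPKM in the cKO libraries. All 4 cKO values of *Ehmt2* thus lay inside the range of the controls, which spread from 49.3 to 91.7 FPKM. For *Ehmt1* the log2 fold change was 0.10 (SE 0.10, 95% interval -0.12 to 0.31, limma adjusted p = 0.773). It was 0.15 without control replicate 4 and 0.18 after rescaling to TPM. The log2 fold change of *Ehmt2* was 0.09 (SE 0.18, 95% interval -0.31 to 0.50, limma adjusted p = 0.887), -0.04 without control replicate 4 and 0.26 without control replicate 1.

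The log2 ratio of *Ehmt1* to *Ehmt2* was below 0 in all 8 libraries. It was -2.56 ± 0.51 in the control and -2.56 ± 0.058 in the cKO libraries (SD, n = 4 per group), a difference of 0.00 (two-sided exact permutation test, p = 1, adjusted p = 1 over 7 pairs). The controls ran from -3.13 in replicate 1 to -1.99 in replicate 4, while the cKO libraries stayed between -2.62 and -2.49. *Wiz*, the zinc finger partner of this dimer, had 13.7 ± 2.38 FPKM in the control and 16.3 ± 0.410 FPKM in the cKO libraries (SD, n = 4 per group), with a log2 fold change of 0.27 (limma adjusted p = 0.487) and overlapping groups, and 0.18 without control replicate 1.

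*Morc1* (ENSMUSG00000022652, chr16:48431237-48630900, + strand) had 3.12, 5.60, 3.50 and 4.55 FPKM in the control libraries. In the cKO libraries it had 4.65, 5.43, 4.11 and 4.64 FPKM, all within the range of the controls. Between the groups the log2 fold change was 0.19 (SE 0.18, 95% interval -0.21 to 0.60, limma adjusted p = 0.762), from 0.07 without control replicate 1 to 0.34 without control replicate 2. Its log2 ratio to *Morc3*, a widely expressed paralog, was -2.30 ± 0.38 in the control and -2.07 ± 0.16 in the cKO libraries (SD, n = 4 per group; two-sided exact permutation test, p = 0.314, adjusted p = 0.6 over 7 pairs). The difference of 0.23 became 0.11 when control replicate 3 was left out, 0.13 without control replicate 1 and 0.37 without control replicate 2. Of the 4 other MORC genes, 1 had an unadjusted p below 0.05: the X-linked *Morc4* had 1.71 ± 0.202 FPKM in the control and 1.14 ± 0.0625 FPKM in the cKO libraries (SD, n = 4 per group). *Morc4* had a log2 fold change of -0.54 (SE 0.15, limma adjusted p = 0.260), and its groups did not overlap.

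*Hells* (ENSMUSG00000025001, chr19:38930915-38971051, + strand) was the steadiest of the 9 genes. It had 28.2, 24.3, 26.3 and 26.9 FPKM in the control and 28.1, 25.5, 26.5 and 24.9 FPKM in the cKO libraries, and the groups covered nearly the same range. Its coefficient of variation over the 8 libraries was 5.43%, the lowest of the 9. Its log2 fold change was -0.01 (SE 0.09, limma adjusted p = 0.979), and the 95% interval as a fold of the control level ran from 0.863 to 1.14. The sign of so small a value changed with scaling, to 0.01 after centring on the library median and 0.07 after rescaling to TPM.

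*Cdca7*, which encodes the zinc finger protein that brings HELLS to chromatin, varied more than *Hells* among the control libraries and less among the cKO libraries. It had 28.7, 20.3, 12.6 and 20.4 FPKM in the control and 23.5, 22.9, 24.3 and 23.6 FPKM in the cKO libraries. The log2 ratio of *Hells* to *Cdca7* was 0.42 ± 0.46 in the control and 0.15 ± 0.079 in the cKO libraries (SD, n = 4 per group), a difference of -0.27 (two-sided exact permutation test, p = 0.343, adjusted p = 0.6 over 7 pairs). Leaving out control replicate 3, the lowest for *Cdca7*, made it -0.056, and leaving out control replicate 1 made it -0.42. Of the 6 HELLS partners and other remodellers, which include *Uhrf1*, *Smarca5*, *Atrx* and *Daxx*, 0 had an unadjusted p below 0.05.

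*Ctcfl* (ENSMUSG00000070495, chr2:173093609-173119525, - strand) was the most variable of the 9 genes, with a coefficient of variation of 47.9%. It had 5.27, 3.70, 9.98 and 4.15 FPKM in the control libraries. In the cKO libraries it had 2.90, 3.91, 4.00 and 3.53 FPKM. Control replicate 3 was far above the other libraries, and control replicate 2 lay inside the range of the cKO group. Its log2 fold change was -0.57 (SE 0.27, 95% interval -1.18 to 0.04, limma adjusted p = 0.495), the largest in size of the 9. Leaving out control replicate 3 made it -0.27 and leaving out control replicate 2 made it -0.74, so its size rested on single libraries.

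CTCFL is known from spermatogonia and early spermatocytes, and *Stra8*, which drives entry into meiosis in the same cells, showed its highest value in the same library. The *Stra8* values were 5.92, 4.53, 19.8 and 12.9 FPKM in the control and 2.03, 3.93, 2.93 and 4.70 FPKM in the cKO libraries. Both genes were highest in control replicate 3 and lowest in cKO replicate 1, but their order differed between these. In control replicate 4 *Stra8* was second highest, while *Ctcfl*, at 4.15 FPKM, lay below its value in control replicate 1 (5.27 FPKM). *Stra8* had a log2 fold change of -1.46 (limma adjusted p = 0.280). Of the 6 markers of differentiating spermatogonia, 1 (*Stra8*) was lower and 3 were higher in the cKO libraries at an unadjusted p below 0.05. The 3 higher were *Dmrtb1* (log2 fold change 0.51), *Sohlh2* (0.42) and *Dnmt3b* (0.29). Over all genes tested, 5% were lower and 5.89% higher at this threshold. The list summed to 99.1 to 121 FPKM in the control and 119 to 142 FPKM in the cKO libraries, and its part in the values of *Ctcfl* was not tested. *Stra8* was singled out after its values were seen.

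The paralog *Ctcf*, by contrast with *Ctcfl*, had 17.8 ± 1.29 and 18.1 ± 0.632 FPKM (SD, n = 4 per group) and a log2 fold change of 0.03. The log2 ratio of *Ctcfl* to *Ctcf* was -1.74, -2.08, -0.88 and -2.16 in the control and -2.58, -2.14, -2.22 and -2.33 in the cKO libraries. The difference was -0.60, with overlapping groups (two-sided exact permutation test, p = 0.0571, adjusted p = 0.4 over 7 pairs, where 4 libraries against 4 can give 0.0286 at the smallest). Leaving out control replicate 3 made it -0.32. The antisense gene *Ctcflos* overlaps *Ctcfl* over 8708 bases and had a median of 0.855 FPKM.

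**Figure D2:**
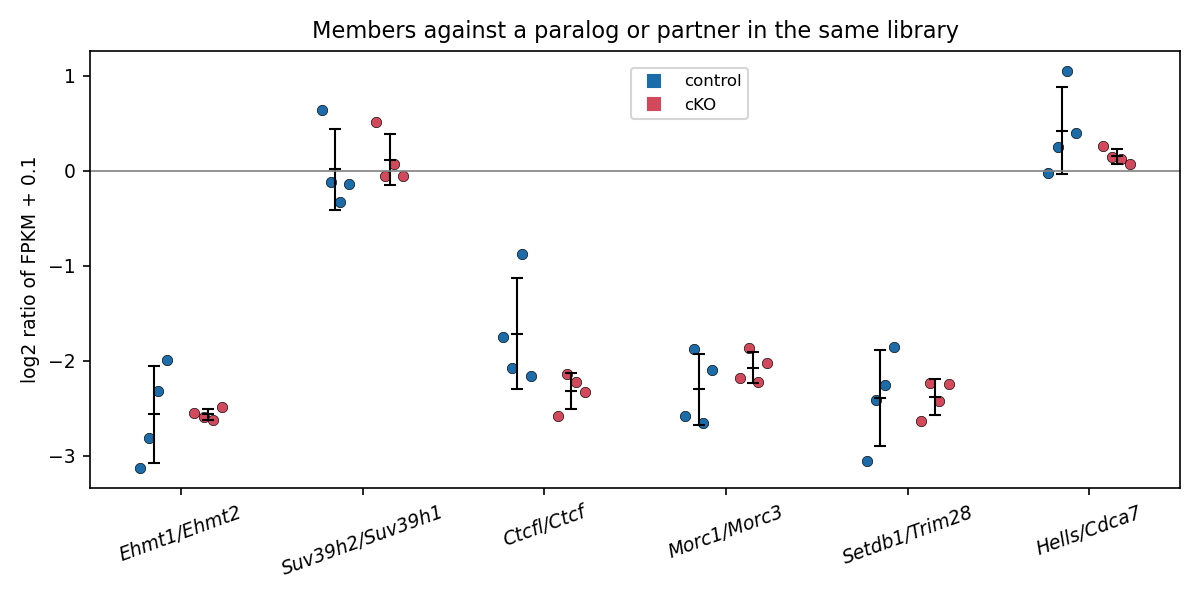
Log2 ratio of each chromatin regulator to a paralog or partner in the same library, from FPKM + 0.1. Points are libraries, blue for control and red for cKO, and bars give the mean and SD of 4 libraries. The groups overlap in the 6 pairs shown, and the controls spread more widely than the cKO libraries in each, for example with an SD of 0.51 against 0.058 for *Ehmt1* to *Ehmt2*.

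**Figure D3:**
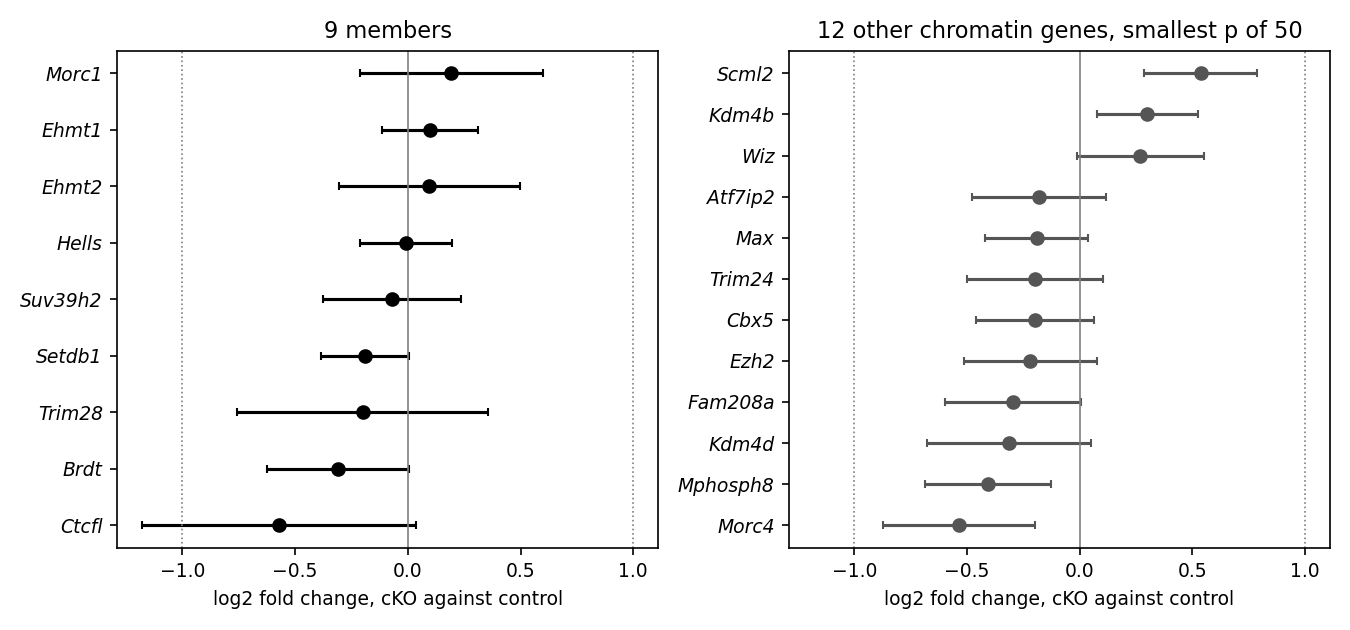
Log2 fold change, cKO against control, with its 95% interval from limma for the 9 chromatin regulators (left) and for the 12 of 50 other chromatin genes with the smallest p (right). Dotted lines mark an absolute log2 fold change of 1. The intervals of all 9 regulators include 0, from -1.18 to 0.04 for *Ctcfl* down to widths such as -0.21 to 0.20 for *Hells*, and those of *Morc4*, *Mphosph8*, *Kdm4b* and *Scml2* do not.

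Much of the variation of the 9 genes lay between control libraries. The SD of log2(FPKM + 0.1) was larger in the control than in the cKO group for 8 of the 9, *Brdt* being the exception (0.10 against 0.28). This was shared with the whole table, since 81.3% of the genes tested had the larger SD in the control group, with a median of 0.25 against 0.13. Without control replicate 1 the median control SD was 0.17, and 7 of the 9 still had the larger SD in the control group. Control replicate 1 was the highest of the 8 libraries for 4 of the 9 genes (*Suv39h2*, *Ehmt2*, *Hells* and *Trim28*) and the lowest for *Morc1*. Control replicate 3 was the highest for *Brdt*, *Setdb1* and *Ctcfl*.

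**Figure D4:**
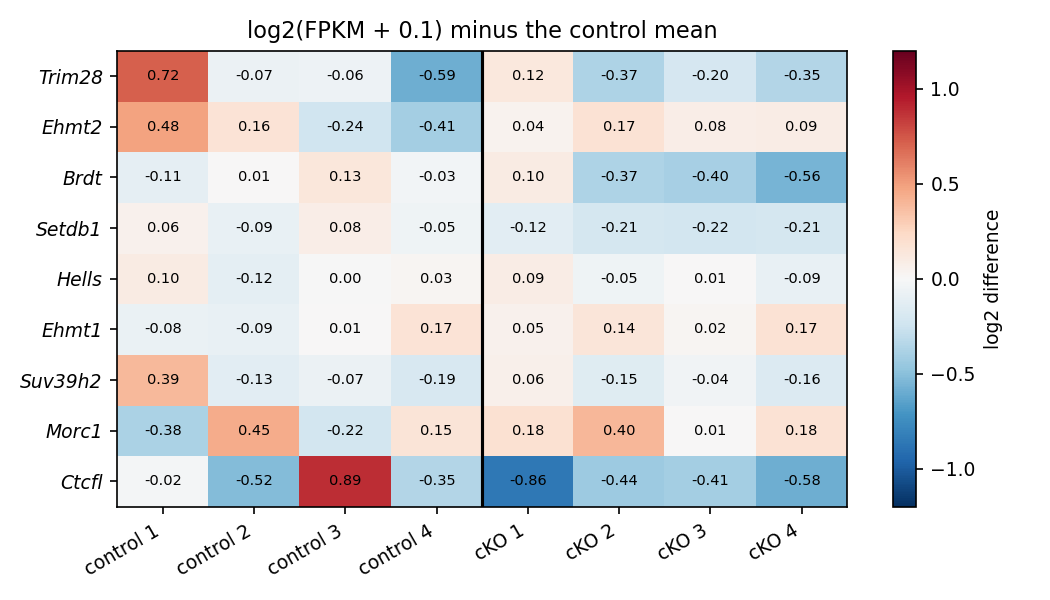
Log2(FPKM + 0.1) of each chromatin regulator in each library minus the mean of the 4 control libraries, with the value written in each cell and red for above and blue for below that mean. Control replicate 1 is high for *Trim28* (0.72), *Ehmt2* (0.48) and *Suv39h2* (0.39), control replicate 3 for *Ctcfl* (0.89), and *Setdb1* is below the control mean in all 4 cKO libraries (-0.12 to -0.22).

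After the group means were subtracted, some of the genes varied together over the 8 libraries. The Pearson correlation was highest for *Suv39h2* with *Trim28* (0.95), followed by *Ehmt2* with *Trim28* (0.79), and lowest for *Ehmt1* with *Trim28* (-0.76). These are descriptions over 8 libraries that share depth, scaling and the distance of control replicate 1 from the rest. The closest genes named next were each picked as the highest among 12141 genes tested, so a high value by itself says little. Over all genes tested, the closest to *Trim28* were *Hint1* (0.999) and *Ran* (0.998), to *Suv39h2* were *Arfgap2* and *Stard7* (0.995 each), and to *Ehmt2* were *Epn1* (0.995) and *Rasal1* (0.991). The closest to *Brdt* were *Skap2* (0.982) and *Cyct* (0.980), the latter encoding the testis form of cytochrome c, and to *Setdb1* were *Ppp3cb* (0.985) and *Itsn1* (0.984). For *Morc1* they were *Figla* (0.981) and *Arhgap10* (0.959), and for *Hells* *Canx* (0.982) and *Psmc6* (0.972). For *Ctcfl* they were *Gm4969* (0.979) and *Cacng5* (0.968), and for *Ehmt1* *4930518I15Rik* (0.986) and *Zfp874b* (0.983).

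The other genes of these pathways were read from 10 lists with 51 genes, of which 50 were tested. None had an adjusted p below 0.05, and 4 (8%) had an unadjusted p below 0.05, 2 lower and 2 higher in the cKO libraries, against 10.9% of all genes tested. The groups did not overlap for 4 of the 50, *Scml2* and *Kdm4b* (higher) and *Morc4* and *Fam208a* (lower). Over all genes tested, 2.59% were lower without overlap, and the share higher without overlap is not given here. *Scml2*, an X-linked germ cell gene of the Polycomb group, had 21.4 ± 2.37 FPKM in the control and 31.1 ± 2.93 FPKM in the cKO libraries (SD, n = 4 per group) without overlap, that is a log2 fold change of 0.54 (SE 0.11, limma adjusted p = 0.150). Its adjusted p ranged from 0.0279, with weighted libraries, to 0.522 over the alternatives. It was the 1 of the 11 Polycomb and germline gene repressors with an unadjusted p below 0.05, while 10 of that list had a log2 fold change below 0.

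*Mphosph8*, a subunit of the HUSH silencing complex that works with SETDB1, had 74.9 ± 8.45 FPKM in the control and 56.5 ± 6.56 FPKM in the cKO libraries (SD, n = 4 per group), that is a log2 fold change of -0.41 (SE 0.13, limma adjusted p = 0.287) with overlapping groups. *Fam208a*, which encodes the HUSH subunit TASOR, had 11.8 ± 2.41 and 9.51 ± 0.584 FPKM (SD, n = 4 per group) and a log2 fold change of -0.29 (limma adjusted p = 0.474) without overlap. Control replicate 1, at 15.4 FPKM against 10.3 to 11.1 FPKM in the other controls, stood apart, and the log2 fold change of *Fam208a* was -0.16 when it was left out. *Mphosph8* was the 1 of 7 partners of the H3K9 methyltransferases with an unadjusted p below 0.05. Among the 11 H3K9 demethylases, *Kdm4b* had 16.0 ± 1.06 and 19.7 ± 1.86 FPKM (SD, n = 4 per group), that is a log2 fold change of 0.30 (SE 0.10, limma adjusted p = 0.333) without overlap, and the other 10 had an unadjusted p above 0.05. *Kdm4d*, *Max*, *Ezh2* and *Atf7ip2* had log2 fold changes of -0.31, -0.19, -0.22 and -0.18, none with an unadjusted p below 0.05. Without control replicate 1 these were -0.12 for *Ezh2*, -0.13 for *Max* and -0.27 for *Atf7ip2*, and without control replicate 3 *Atf7ip2* was at -0.08. An unadjusted p above 0.05 was also found for the 3 genes of HP1, the reader of methylated H3K9, of which *Cbx5* had a log2 fold change of -0.20, or -0.13 without control replicate 1.

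Of the 50 other chromatin genes, 38 (76%) had a log2 fold change below 0, with a median of -0.06, against 48.0% of all genes tested. The share was 62% against 43.8% after centring on the library median and 39.2% of 51 against 32.7% after rescaling to TPM, so the direction of the majority depended on the scaling. TPM also moved the unadjusted calls over all genes from 607 lower and 715 higher to 420 lower and 1070 higher.

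Of the markers of other cells, none had a limma adjusted p below 0.05. At an unadjusted p below 0.05, 5% of all genes tested were lower and 5.89% were higher in the cKO libraries. The sums of the marker lists in each group were as follows. Macrophage markers summed to 8.11 to 18.8 FPKM in the control and 19.6 to 25.8 FPKM in the cKO libraries, without overlap, and 3 of 5 were higher at an unadjusted p below 0.05. Endothelial markers summed to 4.996 to 12.2 and 11.2 to 14.3 FPKM (2 of 4 higher), peritubular markers to 43.7 to 73.9 and 72.6 to 102 FPKM (1 of 2 tested higher) and Leydig markers to 15.6 to 33.2 and 25.2 to 41.0 FPKM (1 of 2 tested higher). Sertoli markers summed to 254 to 369 and 290 to 350 FPKM, with 0 of 6 below an unadjusted p of 0.05. The undifferentiated spermatogonia list summed to 57.9 to 94.1 and 58.3 to 68.1 FPKM, and of its 5 markers tested 0 had an unadjusted p below 0.05. At that threshold 1 marker of leptotene and zygotene cells was lower and 1 was higher. The part of these cell types in the values of *Setdb1*, *Trim28* and the other regulators was not tested.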

How the data were processed

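RNA was sequenced from 8 whole testes, 4 control and 4 cKO, grouped by the labels. The study's methods name paired-end sequencing and a company's software for the FPKM values, which the authors deposited for 54532 genes with a gene length, an annotation value in bases. The submitters' processing notes name GRCm38 (mm10), and 99.93% of gene IDs were in GENCODE vM21. The aligner, counter and use of strand are not given in the sources used here. The labels name a column kit for RNA and the paper names Trizol, and the paper gives slightly earlier tamoxifen injections than the labels, whose days are used here. The authors' own test was DESeq2, which needs counts. It was not run here, although fragment counts could be recovered from FPKM as described next.

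From the deposited FPKM values, log2(FPKM + 0.1) was tested with limma 3.58.1 (R 4.3.3, empirical Bayes with a mean trend) on 12141 genes (protein-coding, mean FPKM exceeding 1 in each group), without covariates, with Benjamini-Hochberg adjustment over all of them. Fold changes on this scale understate those of low genes. The procedure was tested on simulated data. FPKM times gene length gave whole fragments for 100% of values (tolerance 0.02), which gave the depth and a voom alternative. Ratios within a library were compared by an exact two-sided permutation test over 70 assignments, adjusted over 7 pairs. One of the pairs is not reported here. Promoters came from RefSeq (GRCm38.p6). Named genes were the 9 regulators, the partners in the ratios, the 12 other chromatin genes with the smallest p, the 2 genes closest to each regulator, and *Spdya* and *Ddx4* as checks. The regulators and all lists were chosen with earlier results of these data known. The sources do not say that replicate numbers pair mice. Libraries of a group differed by at least 3.94 times the sampling variance, so each was counted once, and 0 value columns were left unused. Alternatives were other pseudocounts, filters, scalings, weights, a replicate block, voom and each library left out in turn. Python 3.11.15 with pandas 2.3.3, scipy 1.17.1 and matplotlib 3.10.9 was used.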

Additional observations from a re-analysis of the deposited data

Results flagged for a closer look

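In 5 of 54 groups of 4 libraries, 1 library lay far from the other 3 (gap to the nearest over the whole range above 0.829, Dixon's 95% value), and chance flags about 1 in 20 groups. *Setdb1* had 29.9 FPKM in cKO replicate 1 against 27.8 to 28.2 FPKM in the other cKO libraries, the cKO value closest to the controls. *Suv39h2* had 10.9 FPKM in control replicate 1 against 7.25 to 7.88 FPKM in the other controls. The share of fragments on mitochondrial genes was 0.464% in the same library against 2.97% to 3.39%. The mean log2(FPKM + 0.1) of the undifferentiated spermatogonia list was 2.04 in cKO replicate 1 against 2.46 to 2.52 in the other cKO libraries. That of the peritubular list was 2.68 in cKO replicate 4 against 2.23 to 2.26.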

How the results depend on the processing

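Of 169 recomputed log2 fold changes of the 9 regulators, 156 kept their direction, 13 reversed and 0 had an adjusted p below 0.05, and of 84 recomputed ratio differences 10 reversed. The reversals were of values near 0 or resting on 1 library, and beyond the removal of libraries their cause was not tested. *Hells* was 0.013 with median centring, 0.070 with TPM, 0.030 with array weights and 0.016 with voom, and *Suv39h2* was 0.0075 with TPM and 0.0098 with array weights. With each library left out, *Hells* ran from -0.049 to 0.024, *Suv39h2* from -0.13 to 0.061, *Ehmt2* from -0.042 to 0.26 and *Trim28* from -0.40 to 0.040. The *Ehmt1*/*Ehmt2* ratio difference was -0.0031 with a pseudocount of 1 and -0.19 to 0.19 with each library left out, that of *Setdb1*/*Trim28* -0.21 to 0.19 and that of *Suv39h2*/*Suv39h1* -0.028 to 0.31.

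Over all genes 2 were called, but 0 without the FPKM filter, 0 above 5 FPKM, 4 with all biotypes, 1 with median centring, 1 with TPM, 57 with array weights and 0 to 3 with each library left out. Unadjusted p below 0.05 was reached by 1322 genes, 744 above 5 FPKM (a filter that drops *Ctcfl* and *Morc1*), 2543 with array weights (20.9%) and 687 to 1889 with each library left out. Among the 9 regulators that count was 0, but 1 without the filter and 1 with all biotypes (*Setdb1* in both), 2 with array weights (*Brdt* and *Setdb1*) and 0 to 2 with each library left out. Among the other chromatin genes it was 4, but 7 with array weights, where 1 (*Scml2*) had an adjusted p below 0.05, and 3 to 7 with each library left out.

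With the replicate block, 0 genes were called, 1 regulator (*Ctcfl*, limma adjusted p = 0.310) and 8 of 50 other chromatin genes had an unadjusted p below 0.05, beside 14.6% of all genes tested. Deviations of same-numbered libraries correlated at 0.288, 0.131, 0.0757 and 0.406, all above 0, and those of other pairs at -0.474 to 0.162. Replicates 1 and 4 of both groups correlated best with their own number, but not every library did. With 1 value under 0.1 and no pairing named in the sources, the numbers were not taken as a pairing in the main fit. Whether same-numbered libraries shared a batch was not tested. The 4 libraries per group limit the precision more than depth does, and a missed threshold does not show equal levels.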
